A study of Homo sapiens with 6 samples.

Results

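Nuclear receptors are transcription factors that a small lipid-soluble molecule, such as a steroid, a retinoid or a fatty acid, can switch on or off inside the cell. Most have a zinc-finger domain that reads a short DNA half-site and a ligand-binding domain that exchanges corepressors for coactivators. PPARG, the gamma member of the peroxisome proliferator-activated receptors (PPARs), binds fatty acid derivatives, pairs with a retinoid X receptor (RXR) on DNA and is best known as the master regulator of fat cell formation. A list of 46 human nuclear receptor genes was followed here, and its members are all probe sets that the platform annotation assigns to one of these genes alone. Such probe sets were found for 39 genes, 127 probe sets in all, among the 19775 genes and 54613 probe sets tested. For 31 genes there was more than 1 probe set, with at most 9, and the 1 with the highest mean level stood for the gene.

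The cells were IGROV1, a single human ovarian carcinoma line, grown with fetal bovine serum and given no drug or gene change according to the labels. Both groups came out of the same kind of Hoechst 33342 dye sort: the side population (SP), 3 samples, and the remaining cells (non-SP), 3 samples. SP cells retain little of this DNA dye, chiefly because ABC transporters pump it out. All 6 RNA samples were amplified before biotin labelling and array hybridisation. The labels call the samples biological replicates but name no separate cultures. The p-values therefore rest on the spread among these 6 samples, part of which may be technical. The serum supplies hormones and lipids to both groups, and no receptor ligand was added or removed. Values are log2 expression on a scale shared by the arrays, whose medians lay between 5.59 and 5.64. Differences are SP minus non-SP throughout, and a lower value in a bulk sample cannot tell fewer expressing cells from less RNA per cell.

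Markers of the ovarian label were read beside those of other cell types. Of 11 ovarian carcinoma markers, 10 were above the negative control level. So were 86.1% of all genes, so this level says little about the label. The array median was exceeded on all 6 arrays by 8 of the 11, beside 53.7% of all genes, while EMX2 was not above the controls. Markers of other cell types were above the controls too: 3 of 5 measured for leukocytes, 4 of 5 for fat cells, 5 of 6 for fibroblasts, 4 of 5 for endothelium and 5 of 5 for hepatocytes. Above the array median on all 6 arrays were 0 for leukocytes, 0 for fat cells, 1 for fibroblasts, 1 for endothelium and 2 for hepatocytes. Markers not above the controls in either group included PTPRC and CD3E for leukocytes and ADIPOQ for fat cells. They also included the fibroblast marker LUM and the endothelial marker TEK. What part such signal has in the receptor values was not tested. The summed level of the 5 fat cell markers was 6.34 to 6.80 in SP and 6.42 to 7.28 in non-SP samples, ranges that overlap, and those of the other 5 marker lists overlapped as well. The arrays also fell into 2 sets along the first principal component, which held 45.8% of the variance over all genes. Set 1 held SP replicate 1 and non-SP replicates 1 and 3, and set 2 held SP replicates 2 and 3 and non-SP replicate 2. The 3′ minus 5′ signal of the ACTB control, a measure of how evenly a transcript was copied, was 2.02 to 2.29 in set 1 and 2.46 to 2.55 in set 2. These sets are not groups of the study, and within-set differences are given beside the receptors that differed by more than 0.5 log2 units between them.

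IGROV1 cells carried signal for most of the family. The log2 values hold no detection call, so a gene was taken as above background when it exceeded, on all 3 arrays of a group, the 95th percentile of the 3 trpn negative control probe sets of the same array, which lay between 3.16 and 3.48. By this measure 35 of the 39 genes were above background in at least 1 group, beside 86.1% of all genes tested. A stricter level, above the array median on all 6 arrays, was met by 19 genes (48.7%), beside 53.7% of all genes. They were the fatty acid receptors PPARA and PPARD; the retinoid partners RXRA, RXRB and RARA; THRA and VDR for thyroid hormone and vitamin D; NR1D2, NR1H3, NR2C1, NR2C2 and NR2F6; ESR2, ESRRA and ESRRB of the oestrogen and oestrogen-related receptors; the glucocorticoid receptor NR3C1; and NR4A1, NR4A2 and NR4A3.

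Another 5 genes, PPARG, RARB, RARG, NR2F1 and NR5A2, were above the array median on all 3 arrays of 1 group but not on all 6 arrays. A further 9 missed that and were above the first quartile, 3.90 to 3.93 on these arrays, on all 3 arrays of at least 1 group: THRB, NR1I3, RORA, HNF4G, NR2E3, ESR1, NR5A1, NR6A1 and NR0B2. RXRG and RORB were above the negative controls alone. The progesterone receptor PGR, the mineralocorticoid receptor NR3C2, ESRRG and NR2E1 were not above the controls in either group. The levels of ESR1, ESR2, ESRRG, NR4A1 and NR4A2 rest on probe sets named _x_at, whose probes can also match transcripts of other genes. With such probe sets left out, a choice made after seeing the data, 17 genes were above the array median on all arrays. The probe sets of ESR1 gave no single answer. Its 211234_x_at read 5.32 to 5.51 over the 6 arrays, above the first quartile, whereas 205225_at read 2.10 to 2.38, under the negative controls on every array.

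Between SP and non-SP, 0 of the 39 receptor genes passed an adjusted p of 0.05 in limma, beside 1 of 19775 genes in all (0.00506%). At an unadjusted p under 0.05 there were 5 receptor genes (12.8%), 4 of them lower in SP and 1 higher, where 6.78% of all genes reached it, 3.71% lower and 3.07% higher. The 3 SP values lay wholly outside the 3 non-SP values for 9 receptor genes (23.1%), beside 11.9% of all genes. Of these 9, PPARG, PPARA, RXRB, RARA, NR4A2 and NR5A2 were on the lower side in SP, and PPARD, RARB and ESR1 on the higher. Without SP replicate 1 the groups lay apart in 15 receptor genes, beside 27.2% of all genes. With all samples, 7.1% of all genes lay apart on the lower side in SP and 4.78% on the higher. A difference of at least 0.5 log2 units was seen in 7 receptor genes (17.9%), beside 8.2% of all genes. The median difference was -0.02 for the receptors and -0.02 for all genes, and 24 receptors (61.5%) were below 0, beside 54.7% of all genes. The receptors as a group were centred where all genes were, and PPARG, NR5A2, NR4A2 and NR2F1 were the receptors furthest below 0.

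**Figure D1:**
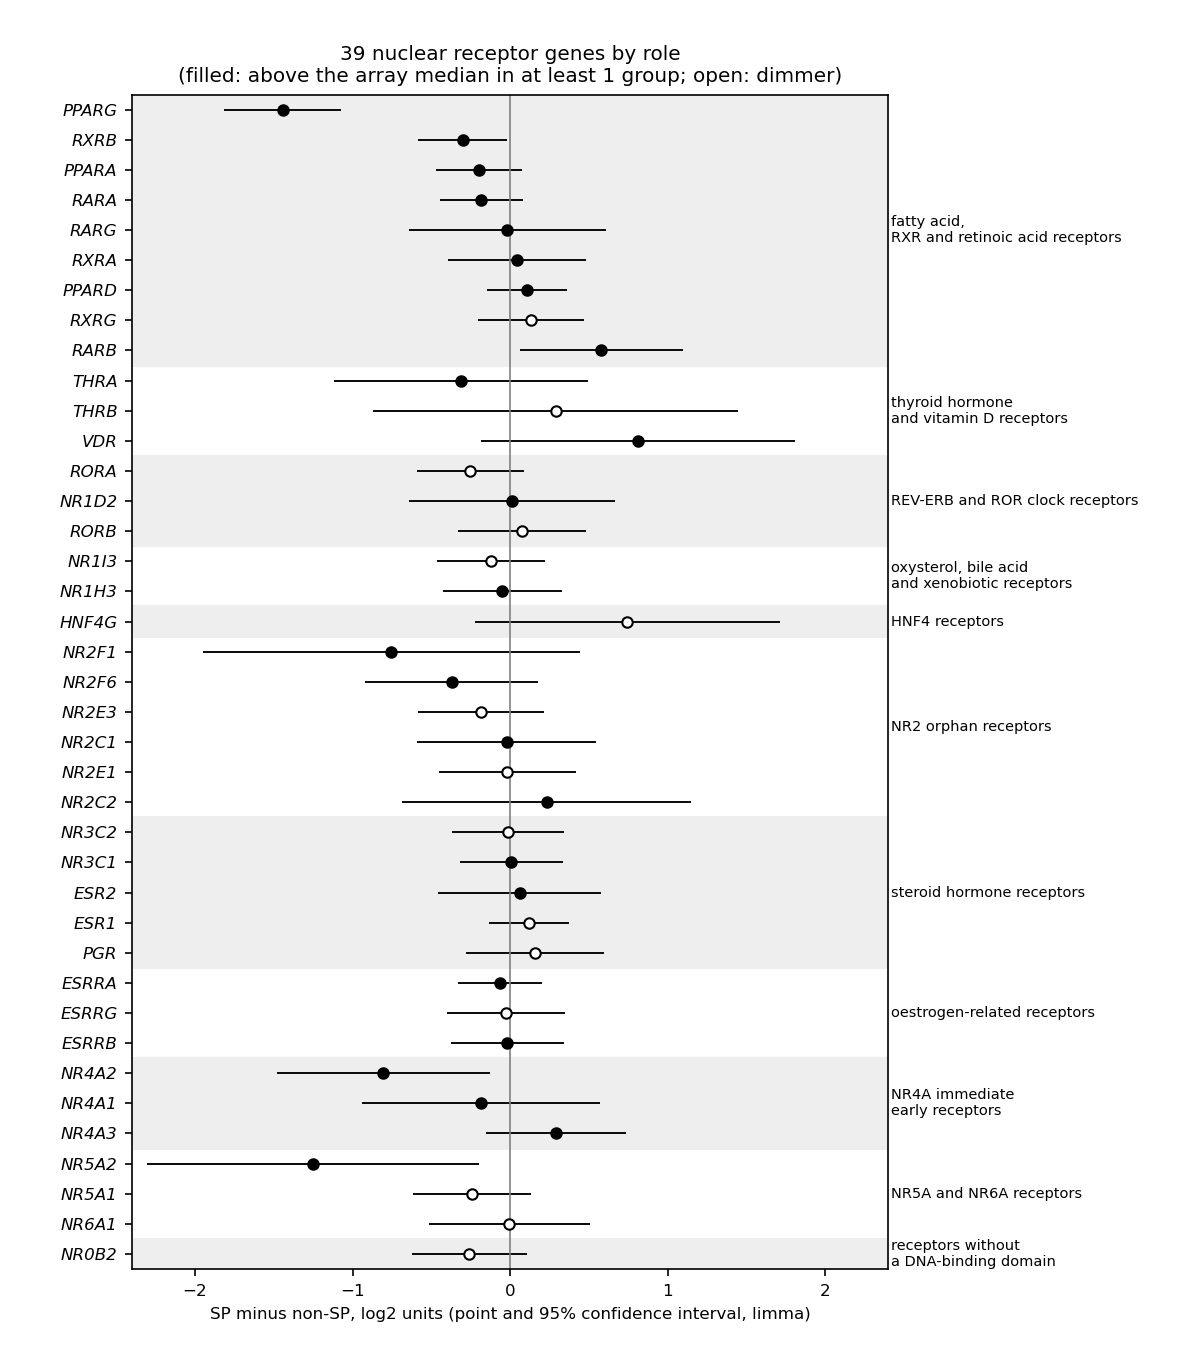
SP minus non-SP difference in log2 units for the 39 receptor genes, ordered by role, with limma's 95% confidence interval as a bar; filled points are genes above the array median in at least 1 group. The PPARG interval, -1.82 to -1.07, keeps farthest from 0, and most other intervals include 0.

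PPARG had the smallest p of the family. It was measured by a single probe set, 208510_s_at, which read 5.52, 5.45 and 5.90 in SP replicates 1 to 3 and 7.07, 7.16 and 6.97 in the non-SP replicates. Every SP value was more than 1 log2 unit below every non-SP value, and the 3 samples of each group lay close together. The means were 5.62 ± 0.25 in SP and 7.07 ± 0.09 in non-SP (SD, n = 3 each). The difference was -1.44 (limma SE 0.16, 95% interval -1.82 to -1.07), which is a 2.72-fold higher level in non-SP cells, with an interval of 2.10 to 3.52. PPARG ranked 10 of 19775 genes by p, and its Benjamini-Hochberg adjusted p in limma was 0.101, so it missed the threshold. The difference was -1.50 within array set 1 and -1.48 within set 2. SP replicate 1 is the only SP sample of set 1, and non-SP replicate 2 the only non-SP sample of set 2. Over 17 alternative settings it stayed between -1.58 and -1.36, with adjusted p from 0.0659 to 0.455, and passed under none of them.

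**Figure D2:**
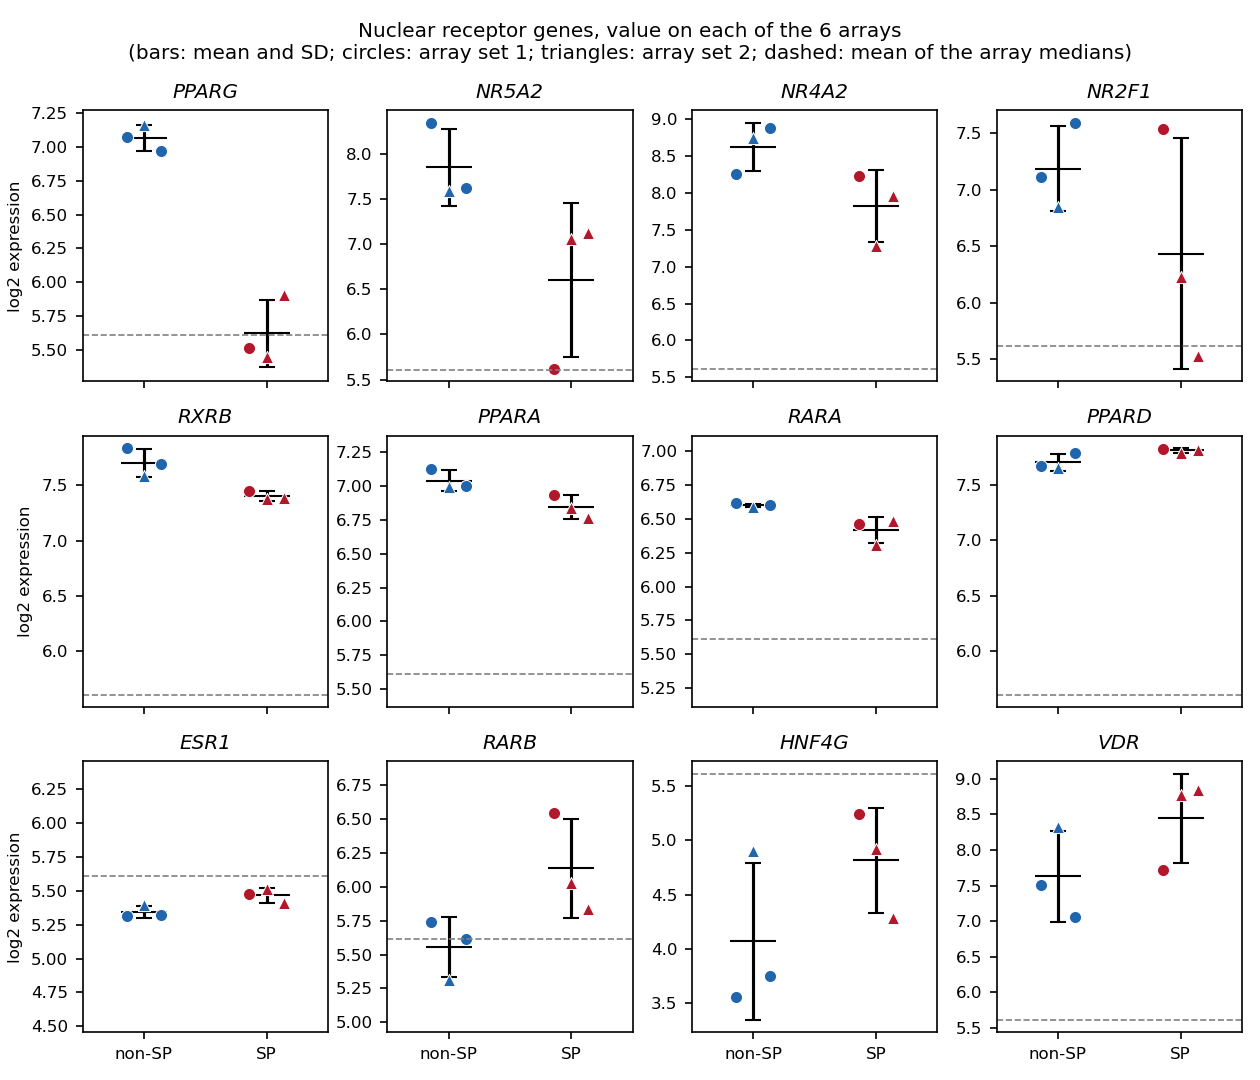
Log2 values of the receptor genes with per-sample values in the text, 1 panel per gene and 1 point per sample, with the group mean and SD as bars and the mean of the array medians as a dashed line; circles are array set 1 and triangles array set 2. In the PPARG panel the SP samples sit between 5.45 and 5.90 and the non-SP samples between 6.97 and 7.16.

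The receptors of this subfamily dimerise with RXRs on half-sites of the letters AGGTCA, and some nuclear receptor promoters hold such half-sites themselves. In RefSeq promoter sequences (GRCh38.p14), the 250 bases before the annotated starts held AGGTCA, read on either strand, in 15 of 96 windows of the receptor genes (15.6%), over 11 of the 41 receptor genes with a window. Among all 35116 windows, 4242 (12.1%) held it. The windows with the half-site of PPARG and NR5A2 are shown because these genes had the lowest differences of the family. For PPARG 3 of 6 windows held it, of which 2 are given, and for NR5A2 1 of 2. Each runs 5′ to 3′ on the gene's plus strand up to the base before the start, with the half-site in capitals.
PPARG, chr3:12287118-12287367: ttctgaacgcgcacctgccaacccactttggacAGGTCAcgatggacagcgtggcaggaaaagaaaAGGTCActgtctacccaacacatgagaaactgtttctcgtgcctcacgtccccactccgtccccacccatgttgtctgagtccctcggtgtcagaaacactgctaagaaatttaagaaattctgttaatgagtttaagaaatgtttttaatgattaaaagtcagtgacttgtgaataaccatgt
PPARG, chr3:12288810-12289059: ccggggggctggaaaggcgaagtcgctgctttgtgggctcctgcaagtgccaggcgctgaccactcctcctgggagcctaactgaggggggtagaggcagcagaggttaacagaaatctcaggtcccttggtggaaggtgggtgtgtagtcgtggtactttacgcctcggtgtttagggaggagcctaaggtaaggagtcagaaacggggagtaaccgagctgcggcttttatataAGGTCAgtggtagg
NR5A2, chr1:200027460-200027709: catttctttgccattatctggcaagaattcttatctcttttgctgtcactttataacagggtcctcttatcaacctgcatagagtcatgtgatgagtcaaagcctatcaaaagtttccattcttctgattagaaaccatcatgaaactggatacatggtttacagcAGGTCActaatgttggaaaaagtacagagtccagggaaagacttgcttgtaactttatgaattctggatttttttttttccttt
The half-sites of the first PPARG window begin 217 and 184 bases before its start, that of the second 14 bases before and that of NR5A2 84 bases before. A match of 6 letters is a description of the window; no binding was measured.

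PPARA and PPARD, the other fatty acid receptors, showed small differences. PPARA, which drives fatty acid oxidation in liver and muscle, read 6.94, 6.84 and 6.76 in SP and 7.13, 6.99 and 7.0 in non-SP samples. The groups did not overlap, yet the difference was -0.20 (SE 0.11, limma adjusted p = 0.847). Of its 8 probe sets above the controls, 4 were lower and 4 higher in SP. The mean over all 9 PPARA probe sets, controls level aside, gave 0.08. PPARD, the broadly expressed member, read 7.83, 7.79 and 7.82 against 7.67, 7.66 and 7.79. Its groups were apart by a hair, with a difference of 0.11 (SE 0.11, limma adjusted p = 0.922).

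RXRs are the shared partners of the PPARs and of the retinoic acid, vitamin D and thyroid hormone receptors. RXRB read 7.45, 7.37 and 7.38 in SP and 7.83, 7.58 and 7.69 in non-SP samples. The groups did not overlap and the difference was -0.30 (SE 0.12, limma adjusted p = 0.714). The other 2 RXRB probe sets were also lower in SP, by -0.69 and -0.55, though there SP replicate 1 overlapped the non-SP samples. RXRA differed by 0.04, with an interval of -0.40 to 0.48. RXRG was just above the negative controls.

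The retinoic acid receptors went in different directions. RARB, itself a retinoic acid target, was the 1 receptor above 0 at an unadjusted p under 0.05. Its probe set 208530_s_at read 6.54, 6.03 and 5.83 in SP and 5.74, 5.31 and 5.61 in non-SP samples, a difference of 0.58 (SE 0.22, limma adjusted p = 0.692). The groups did not overlap. Another RARB probe set, 208412_s_at, did not overlap in the opposite direction, with a difference of -0.39, and the mean over its probe sets was 0.18. RARA, the most widespread retinoic acid receptor, read 6.46, 6.31 and 6.49 against 6.61, 6.59 and 6.60. Its difference was -0.18 (SE 0.11, limma adjusted p = 0.859). Another RARA probe set, 1565358_at, gave -0.96, and the rest gave -0.10 to 0.12. RARG differed by -0.02.

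NR5A2, also called LRH-1, is an orphan receptor that drives bile acid and steroid synthesis genes and, in the ovary, functions in granulosa cells. Its 3 probe sets above the controls were all below 0 by more than 1 log2 unit. Probe set 208337_s_at read 5.62, 7.06 and 7.12 in SP and 8.34, 7.59 and 7.62 in non-SP samples. The groups did not overlap, but SP replicate 1 lay far below the other SP samples. The difference was -1.25 (SE 0.44, 95% interval -2.30 to -0.19, limma adjusted p = 0.669). It was -2.36 within array set 1 and -0.49 within set 2, and -0.76 without SP replicate 1.

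The other NR5A2 probe sets differed in their spread. In 210174_at the SP values were 6.29, 6.73 and 5.89 and the non-SP values 7.57, 7.87 and 8.18. Here no sample stood alone, and the difference was -1.57 (SE 0.26, limma adjusted p over all probe sets 0.232). The third, 208343_s_at, did not overlap either and gave -2.02 (SE 0.53, limma adjusted p 0.455). Its SP samples were spread more widely, from 4.05 to 6.13. The fourth, 1560469_at, was not above the controls on all 3 arrays of either group. The mean over the 4 probe sets was -1.70 (SE 0.29, limma adjusted p = 0.233). NR5A1, the close relative that controls steroid synthesis in gonad and adrenal, differed by -0.24, and NR0B2, a receptor without a DNA-binding domain that represses NR5A2, by -0.26. NR6A1, a germ cell receptor, differed by -0.00 (limma adjusted p = 0.999), although all 7 of its probe sets were below 0, down to -0.38.

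**Figure D3:**
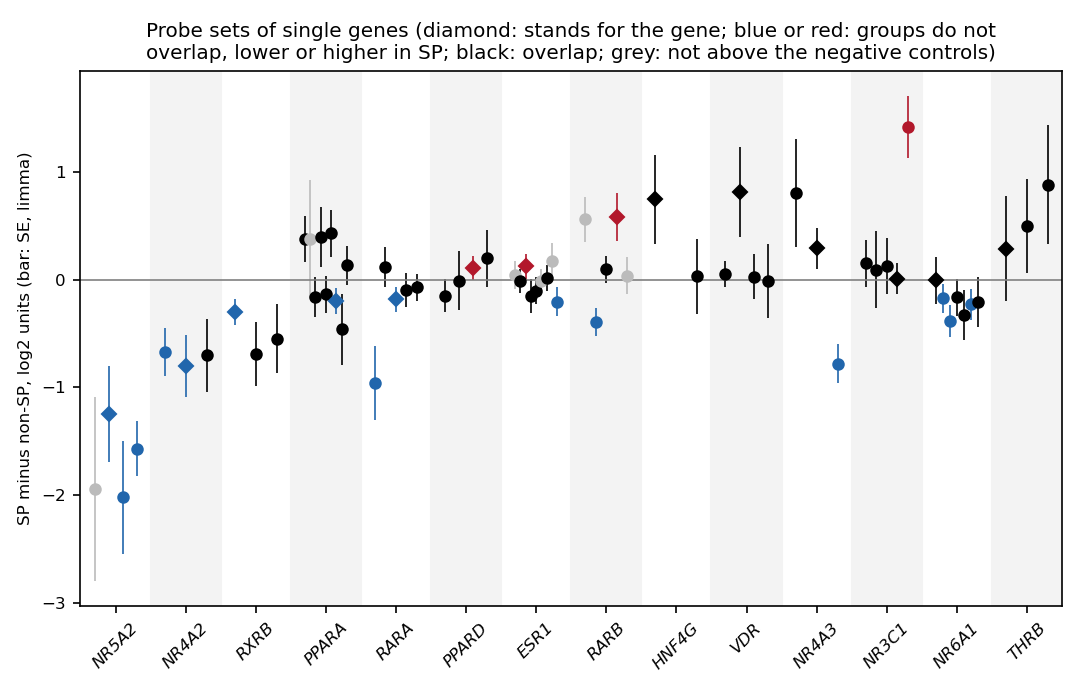
SP minus non-SP difference in log2 units of every probe set of selected receptor genes, with limma's SE as a bar, a diamond for the probe set that stands for the gene, and blue or red where the groups do not overlap. The probe sets of NR5A2, NR4A2 and RXRB all lie below 0, while those of RARB and NR4A3 lie on both sides; the point of NR3C1 at 1.42 rests on non-SP values under the negative controls.

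The NR4A receptors are immediate early genes that many stimuli induce quickly, and they act without a known natural ligand. NR4A2 read 8.23, 7.28 and 7.97 in SP and 8.26, 8.75 and 8.88 in non-SP samples. The highest SP value lay just under the lowest non-SP value, and the difference was -0.80 (SE 0.28, limma adjusted p = 0.666). Its other probe sets gave -0.67, with groups apart, and -0.70. Within the array sets the NR4A2 difference was -0.34 and -1.12. NR4A3 had a difference of 0.29 in the probe set that stands for it, with 0.81 in another and -0.78 in 216979_at, whose groups did not overlap. NR4A1 differed by -0.19, with 0.11 and 0.06 within the array sets, where set 2 minus set 1 was -0.78. Its probe set 210226_at, not named _x_at, gave -0.34, with -0.23 and -0.25 within the sets and groups that overlapped. The remaining NR4A1 probe set, 211143_x_at, gave -0.01.

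Several receptors differed more between the array sets than between SP and non-SP. The vitamin D receptor VDR read 7.72, 8.77 and 8.84 in SP and 7.50, 8.33 and 7.06 in non-SP samples. The groups overlapped, with a difference of 0.81 (SE 0.42, limma adjusted p = 0.801), 0.44 within set 1 and 0.48 within set 2. Set 2 lay 1.22 above set 1, and the other VDR probe sets gave 0.05, 0.03 and -0.01 between SP and non-SP. NR2F1, also called COUP-TFI, a regulator of neural development, read 7.54, 6.23 and 5.53 in SP and 7.11, 6.85 and 7.60 in non-SP samples.

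For NR2F1 the groups overlapped, and the difference of -0.75 (SE 0.50, limma adjusted p = 0.876) was 0.19 within set 1 and -0.97 within set 2. It was -1.31 without SP replicate 1 and -0.30 without SP replicate 3. THRB, a thyroid hormone receptor, differed by 0.29, with 0.23 and -0.32 within the sets and set 2 above set 1 by 0.99. The other THRB probe sets gave 0.49 and 0.88, with groups that overlapped. In all, 8 receptor genes differed by more than 0.5 between the array sets, and 24 had the same sign of the SP difference in both sets. THRA, the other thyroid hormone receptor, differed by -0.31, with -0.68 within set 1 and 0.38 within set 2. NR1D1, which is transcribed from the opposite strand of the THRA locus, had no probe set of its own: the 3 probe sets it shares with THRA gave -0.24, -0.01 and 0.11 and were left out of the counts.

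**Figure D4:**
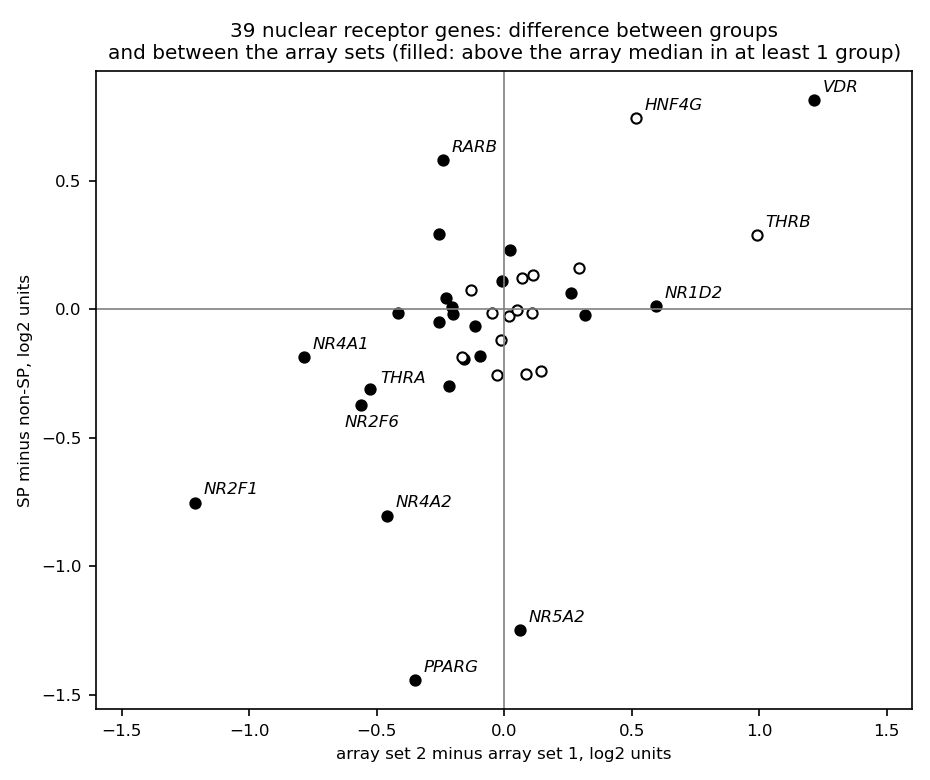
SP minus non-SP difference (vertical axis) against the difference between array set 2 and array set 1 (horizontal axis), both in log2 units, with 1 point per receptor gene, filled where it is above the array median in at least 1 group. PPARG lies low with a set difference of -0.35, while VDR at 1.22 and NR2F1 at -1.21 lie at the sides.

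HNF4G, a receptor of the HNF4 family, read 5.24, 4.92 and 4.29 in SP and 3.56, 4.90 and 3.75 in non-SP samples. The groups overlapped and the difference was 0.74 (SE 0.40, limma adjusted p = 0.826), 1.58 within array set 1 and -0.30 within set 2. Its second probe set gave 0.03. The remaining NR2 receptors NR2C1, NR2C2, NR2E3 and NR2F6 differed by -0.02, 0.23, -0.18 and -0.37. The other NR2C1 probe sets gave 0.13, 0.32 and 0.56, with groups that overlapped. The NR2F6 difference was -0.11 within array set 1 and -0.30 within set 2.

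Among steroid hormone receptors the differences were small in the probe sets that stand for the genes. The glucocorticoid receptor NR3C1 had 4 probe sets above the array median on all arrays with differences of 0.01 to 0.15, and the interval of the gene was -0.32 to 0.34. A further probe set, 232431_at, stood apart: it read 3.97, 4.64 and 4.0 in SP and 3.18, 2.29 and 2.88 in non-SP samples. All 3 non-SP values lay under the negative control level of their own array, so the size of this gap is not measured. ESR1, the oestrogen receptor alpha gene, read 5.48, 5.51 and 5.41 against 5.32, 5.40 and 5.32. The groups were barely apart, with a difference of 0.12 (SE 0.11, limma adjusted p = 0.908), and the sign turned to -0.15 without the _x_at probe sets. Of the 6 ESR1 probe sets above the controls, 4 were lower and 2 higher in SP. In 217190_x_at the groups lay apart in the opposite direction, with a difference of -0.20. ESR2, oestrogen receptor beta, differed by 0.06. Its probe set 211119_at gave 0.65 (SE 0.38) with groups that overlapped, and the others above the controls gave -0.05 to 0.18. The oestrogen-related receptors ESRRA and ESRRB, regulators of mitochondrial and stem cell genes, differed by -0.06 and -0.02.

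The clock receptor NR1D2, a REV-ERB that represses BMAL1, differed by 0.01 with an interval of -0.64 to 0.67, so these samples set no tight bound on it. It was -0.30 within array set 1 and -0.12 within set 2, and set 2 lay 0.60 above set 1. RORA, which activates BMAL1 from the same sites, differed by -0.25. NR1H3, the liver X receptor alpha gene that senses oxysterols, differed by -0.05, and NR1I3, the constitutive androstane receptor of drug metabolism, by -0.12. Over all 27 receptor genes whose samples are not given one by one, differences ran from -0.37 to 0.29 and limma adjusted p from 0.84 to 0.999. Of the 46 listed genes, HNF4A, NR0B1, NR1H2, NR1H4, NR1I2 and NR2F2 had no probe set annotated to them alone and are not analysed here.

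Probe sets of 1 gene gave a mixed account. Of the 127 probe sets, 104 were above the controls in at least 1 group. None of the 127 passed limma's adjusted threshold over all probe sets (lowest adjusted p 0.122, for PPARG), beside 1 of 54613 (0.00183%). At an unadjusted p under 0.05 there were 14 (11%), beside 7.31%. Groups did not overlap in 21 (16.5%), 16 lower and 5 higher in SP, from 12 genes, beside 12.5% of all probe sets, 6.87% lower and 5.59% higher. Of the 27 genes with several probe sets above the controls, 14 had all of these on 1 side of 0 and 13 had them on both.

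Genes that PPARs are known to activate, mainly in lipid storage and fatty acid oxidation, were next. This list and those that follow were chosen with earlier results of these data known, so their counts and medians only describe the lists. Of 35 listed, 29 were measured and 0 passed limma's threshold. At an unadjusted p under 0.05 there were 5 lower and 0 higher in SP, beside 3.71% and 3.07% of all genes. Of the 29, 18 were below 0, beside 54.7% of all genes, and the median was -0.11, against -0.02 for all genes. ETFDH, an electron carrier enzyme of fatty acid oxidation, read 7.87, 7.71 and 7.67 in SP and 8.34, 8.30 and 8.30 in non-SP samples. These groups did not overlap, and the difference was -0.56 (SE 0.11, limma adjusted p = 0.389).

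HADHA, a mitochondrial beta-oxidation enzyme, differed by -0.43 (SE 0.12, limma adjusted p = 0.602). ANGPTL4, a lipase inhibitor, differed by -0.44 and PLIN4, a lipid droplet coat protein, by -0.40, both with groups apart. In contrast, FABP4, a fatty acid carrier and classical PPARG target of fat cells, differed by 0.08, PDK4, which restrains glucose oxidation, by -0.07 and PLIN2, a lipid droplet coat, by -0.01. All 3 met the first quartile level but not the median level, and their groups overlapped.

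Coactivators and corepressors, which the ligand exchanges on the receptor, showed 0 calls. Of 20 coactivators, 19 were measured, with a median of 0.04 and 0 genes at an unadjusted p under 0.05. NCOA1, a p160 coactivator, differed by 0.27 and CARM1, an arginine methyltransferase, by -0.24, both with groups apart. NCOA7 differed by 0.40 and NCOA2 by 0.31, with groups that overlapped. PPARGC1A, the coactivator that joins PPARs to mitochondrial genes, differed by -0.21 (limma adjusted p = 0.912). Of 12 corepressors, 10 were measured, with a median of -0.03 and again 0 genes at an unadjusted p under 0.05. SIRT1, a deacetylase that represses PPARG, differed by 0.46 and HDAC3 by -0.21, both with groups apart. NRIP1 differed by 0.41 and C1D by -0.24, with groups that overlapped.

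Enzymes and carriers that supply ligands were measured for 24 of 25 genes, 17 of them below 0 (54.7% of all genes were), with a median of -0.12, against -0.02 for all genes. At an unadjusted p under 0.05 there were 4 of the 24 lower and 0 higher in SP, beside 3.71% and 3.07% of all genes. Past limma's threshold there were 0. With earlier results known when the list was chosen, its count is no test against those shares. PTGDS makes prostaglandin D2, whose dehydration products can activate PPARG. It read 7.83, 7.03 and 6.63 in SP and 9.72, 9.18 and 9.42 in non-SP samples. The groups were more than 1 log2 unit apart, with a difference of -2.28 (SE 0.32, limma adjusted p = 0.158). ALDH1A3 makes retinoic acid from retinal. It read 5.21, 6.82 and 7.16 against 7.46, 9.54 and 7.86, with a difference of -1.89 (SE 0.69, limma adjusted p = 0.677), -2.45 within array set 1 and -2.55 within set 2. With the array set as a block the difference was -2.50 and the limma adjusted p 0.0384. The sets were read from these same values, so that p may be too small.

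CRABP2, which carries retinoic acid to its nuclear receptor, also belongs to the list of retinoic acid targets. It read 6.68, 6.13 and 6.59 in SP and 7.59, 7.04 and 7.52 in non-SP samples. The groups did not overlap, and the difference was -0.92 (SE 0.21, limma adjusted p = 0.474). STS, which frees steroids from their sulphates, differed by -0.56, with groups that overlapped, and by 0.06 when its probe sets were averaged. Among the 13 measured of 15 retinoic acid receptor targets, RARB included, the median was -0.02, with 1 gene lower and 1 higher at an unadjusted p under 0.05. RARRES1, induced by retinoids, differed by 0.33 and TGM2, a transglutaminase, by -0.26.

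All 13 liver X receptor targets were measured, with a median of -0.12, against -0.02 for all genes. At an unadjusted p under 0.05 there were 2 lower and 0 higher, beside 3.71% and 3.07% of all genes. ABCG1, a cholesterol exporter, read 5.53, 6.97 and 4.74 in SP and 7.48, 7.34 and 7.43 in non-SP samples. The SP samples were widely spread and the non-SP samples close together, without overlap, and the difference was -1.67 (SE 0.52, limma adjusted p = 0.612). APOC1, an apolipoprotein, differed by -0.72 (SE 0.15, limma adjusted p = 0.411), SCD, a fatty acid desaturase, by -0.23 and SMPDL3A by -0.41. These genes were named by p and all lay below 0, but of the 13 targets 8 were below 0 and 5 above.

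Targets of the xenobiotic receptors NR1I2 and NR1I3 were measured for 12 of 15 genes, with a median of 0.05 and 1 gene at an unadjusted p under 0.05 in each direction. The gene higher in SP was ABCB1, the multidrug pump that also exports Hoechst dye, with a difference of 4.78 (SE 0.56, limma adjusted p = 0.12). Over 17 alternative settings its adjusted p ranged from 0.00142 to 0.455, and it passed in 3 of them: array weights, the array set as a block and the ACTB signal as a covariate. The weights and the array sets were read from these same values, so the p-values under those settings may be too small. The gene lower in SP was UGT1A6, a glucuronidation enzyme. It read 6.01, 6.12 and 5.08 in SP and 7.83, 7.73 and 8.04 in non-SP samples, far apart, with a difference of -2.13 (SE 0.29, limma adjusted p = 0.154). CYP3A5, a drug-oxidising enzyme, differed by 0.58 and ABCC2, an export pump, by 0.40.

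Glucocorticoid receptor targets, measured for 13 of 14 genes, had a median of -0.14, against -0.02 for all genes. At an unadjusted p under 0.05 there were 3 lower and 1 higher, beside 3.71% and 3.07% of all genes. GADD45B, a stress response gene, read 8.41, 8.31 and 7.89 in SP and 9.76, 9.75 and 9.42 in non-SP samples. The groups were more than 1 log2 unit apart, with a difference of -1.44 (SE 0.18, limma adjusted p = 0.123). FKBP5, a chaperone that dampens the receptor, differed by -0.96 (SE 0.21, limma adjusted p = 0.445). DUSP1, a phosphatase induced by glucocorticoids, lay on the other side at 0.40. The receptor gene itself, NR3C1, differed by 0.01.

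In the remaining lists 1 gene reached an unadjusted p under 0.05. Vitamin D receptor targets were measured for 9 of 10 genes, 8 of them below 0, with a median of -0.11 and 0 at an unadjusted p under 0.05. Among these, CAMP differed by -0.21, SLC34A2 by -0.20, SPP1 by -0.17 and CYP3A4 by -0.11. Oestrogen receptor targets, 12 of 13 measured, had a median of 0.05 and 0 genes at an unadjusted p under 0.05. CCND1, a cell cycle driver, differed by 0.34, IGFBP4 by 0.15, MYB by -0.73 and CA12 by -0.49, each with groups that overlapped. Circadian clock genes, 16 of 17 measured, had a median of 0.05, with 1 lower and 0 higher. That gene was HLF, a clock output factor, at -0.66 (SE 0.26, limma adjusted p = 0.706), while the repressors PER2 and CRY2 differed by 0.43 and 0.33 and NPAS2 by -0.33.

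**Figure D5:**
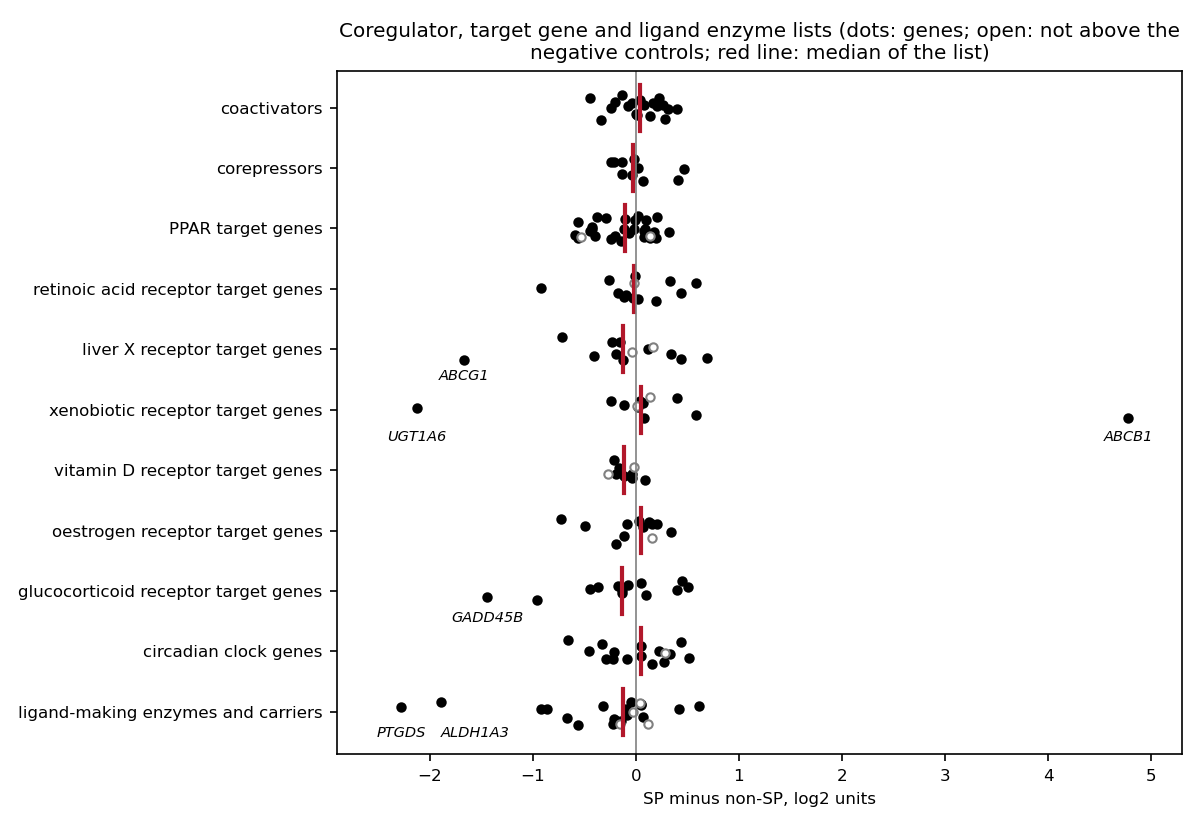
SP minus non-SP difference in log2 units of each gene of the coregulator, target and ligand enzyme lists, 1 row per list, with the list's median as a red line. The medians lie between -0.14 and 0.05, and single genes such as ABCB1 at 4.78, PTGDS at -2.28 and UGT1A6 at -2.13 lie far from them.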

How the data were processed

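The authors deposited 1 log2 expression value per probe set and array, made with R 2.8.1, affy and RMA per the submitters' processing notes. Other settings: not given in the sources used here. RMA sets the arrays to a shared distribution, so a global change in RNA cannot be seen. Of 54675 probe sets, 62 controls were left out, and 41091 of the 54613 others carried 1 symbol. One probe set per gene entered limma 3.58.1 (lmFit and eBayes, run in R 4.3.3), two-sided, with Benjamini-Hochberg adjustment over 19775 genes and no filter on dim genes. Beyond the choice of 1 probe set per gene, levels are not compared between probe sets. The number of arrays limits the precision. The planned set of negative controls had included 24 probe sets that proved to be spiked in (at least 9.47 on every array), so 3 trpn probe sets were used alone. Members and lists were chosen with earlier results of these data known. Values per sample are given for PPARG and for receptors above background with a difference of at least 0.5 or groups that do not overlap; up to 4 genes by p are named per list, plus known partners of PPARG. Probe sets other than those standing for a gene were picked after their values were seen. The fit was tested on simulated data that held no array sets. The planted differences were larger than that of any receptor gene, so the test does not cover differences of their size. In their deviations from the group means, same-numbered samples correlated by 0.449, 0.381 and -0.212 and other pairs by -0.573 to 0.4. With 3 arrays per group this cannot settle whether the numbers pair the samples. The main fit treats them as unpaired. Python 3.11.15, pandas 2.3.3 and matplotlib 3.10.9 were used. One gene of the corepressor list is not reported here.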

Additional observations from a re-analysis of the deposited data

How the results depend on the processing

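No receptor gene passed the adjusted threshold under any of 17 alternatives, which included cyclic loess, median centring, an intensity trend, array weights, a block for the array set, the ACTB signal as a covariate, a filter on dim genes and leaving out each sample. With the replicate block 0 receptor genes passed, and the adjusted p of PPARG was 0.231. The count of receptors whose groups do not overlap was 9, beside 11.9% of all genes. It was 10 to 15 with 1 sample left out, where fewer values make a gap easier. Without SP replicate 1 it was 15, beside 27.2% of all genes. Averaging a gene's probe sets gave 6. For that count and for the other left-out samples no share over all genes is given, so they are not read against it. Receptors above background numbered 24 with the array median as the level. Of the other genes, ABCB1 passed in 3 of 17 alternatives (lowest adjusted p 0.00142) and ALDH1A3 in 1, the array set as a block (0.0384). Array sets and array weights were read from these same values, so p-values under those settings may be too small. The following differences turned sign, none of them called. With probe sets averaged, they were 0.084 for PPARA, -0.013 for ESR1, -0.13 for FABP4, -0.10 for NCOA1, 0.11 for PDK4, 0.023 for PPARGC1A and 0.063 for STS. Without _x_at probe sets ESR1 was -0.15. PLIN2 was 0.017 with cyclic loess and 0.072 with array weights. Leaving out each sample in turn, FABP4 ranged from -0.032 to 0.229, PDK4 from -0.178 to 0.043 and PLIN2 from -0.119 to 0.096. The cause was not tested.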
